A study of Mus musculus with 18 samples.

Results

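RNA-seq of *M*-cKO cortices was compared with RNA-seq of Ctrl cortices over every gene of the deposited count table. The comparison takes 6 of the 18 libraries of the series, chosen by their labels, with 3 from *M*-cKO and 3 from Ctrl. The study deleted *Mettl3* or *Fto* in the developing cortex and sequenced RNA and ribosome-protected fragments of the same genotypes. *M*-cKO embryos were *Mettl3* f/f with *Emx1-Cre*, *F*-cKO embryos were *Fto* f/f with *Emx1-Cre*, and Ctrl embryos are labelled wild type. Strain (C57BL/6), tissue (cerebral cortex) and age (E15.5) are the same in the labels of each group. By the methods, the floxed alleles were made in fertilized eggs of C57BL/6J mice. The methods also give a mixed C57/BL6 and 129 background for the floxed mice. Any strain differences therefore cannot be told apart from the deletion. *Emx1-Cre* is expressed in progenitors of the dorsal telencephalon, so cells that reach the cortex from elsewhere keep the floxed gene intact. No Cre allele is named for Ctrl, so effects of Cre cannot be told apart from those of the deletion. The libraries of a group are labelled as biological repeats, and whether a library holds 1 embryo or a pool is not stated. Counted reads numbered 22169914, 20683998 and 18504094 in the Ctrl libraries and 22592406, 19773777 and 22185190 in the *M*-cKO libraries.

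N6-methyladenosine (m6A) is a methyl mark that a nuclear writer complex places on mRNA, with Mettl3 as the catalytic subunit and Mettl14 as its RNA-binding partner. Erasers remove the mark, and readers that bind it act on splicing, translation and decay, so that marked transcripts are often short-lived. In the embryonic cortex, radial glia divide and produce intermediate progenitors (IPs) and neurons, and deep-layer neurons are born before upper-layer neurons.

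*Mettl3* itself was counted at 29.7, 32.9 and 26.1 CPM in Ctrl and 44, 40.1 and 42.5 CPM in *M*-cKO, in counts scaled to library size (CPM). The *M*-cKO libraries all exceeded those of Ctrl, although the gene was deleted. The log2 fold change was 0.50 ± 0.09 SE (adjusted *P* = 0.00221, edgeR quasi-likelihood test, Benjamini-Hochberg over all genes tested). Brackets after a gene below give its log2 fold change ± SE and this adjusted *P*, written as FDR. In the *F*-cKO libraries the level was 32.1, 31.2 and 27 CPM. The paper describes floxed exons near the start of the gene, and whole-gene counts also take reads of the exons that remain. These counts therefore do not check the deletion, and counts per exon were not used here. *Mettl3* also overlaps *Tox4*, a gene chosen here after its values were seen, and *Tox4* was not called (0.12 ± 0.06, FDR = 0.17). Footprints of *Mettl3* in the Ribo-seq libraries of the same genotypes went the other way, with a log2 fold change of −0.55 ± 0.09 (adjusted *P* = 0.0157). That call was lost with all 9 Ribo-seq libraries in 1 fit (FDR = 0.118) and without Ctrl replicate 1 (FDR = 0.0542), 2 (0.0804) or 3 (0.0624). The log2 fold changes there were −0.53, −0.57, −0.57 and −0.49, in that order.

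Of 16968 genes tested, 2630 (15.5%) were higher and 2394 (14.1%) lower in *M*-cKO, and these shares are the background for each list below. The median log2 fold change over all genes was −0.01, with quartiles of −0.23 and 0.21. In 7600 of the genes tested (44.8%) the 3 *M*-cKO libraries did not overlap the 3 Ctrl libraries, in either direction. Where a single gene is said to separate the groups, that share is its background. Changes over 2-fold were fewer among higher genes, with 279, than among lower genes, with 401. Without Ctrl replicate 3 the number of lower genes fell to 1498, while the number of higher genes stayed within 1.5-fold when any of the 6 libraries was left out. Of 13872 protein-coding genes, 2492 were higher and 1995 lower, with a median of 0.01. Long noncoding RNAs leaned the other way, with 47 higher and 134 lower of 844 and a median of −0.18. The same held for 243 loci with no Ensembl identifier (19 higher, 40 lower, median −0.17). Among 919 pseudogenes, 31 were higher and 53 lower. Of 5 equal groups of genes by transcript length, the shortest had 310 higher and 342 lower of 3394, and the longest 629 and 622 of 3394, with medians between −0.04 and 0.01 in all 5. For protein-coding genes alone these were 443 and 337 of 2775, and 521 and 510 of 2775. Within 5 Mb of *Mettl3* on chromosome 14, 33 of 120 genes tested were higher and 13 lower, with a median of 0.05. By the methods, the floxed alleles were made in eggs of the labelled strain, and the floxed mice have a mixed background. Any alleles of another strain near the gene cannot be told apart here from effects of the deletion.

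**Figure D1:**
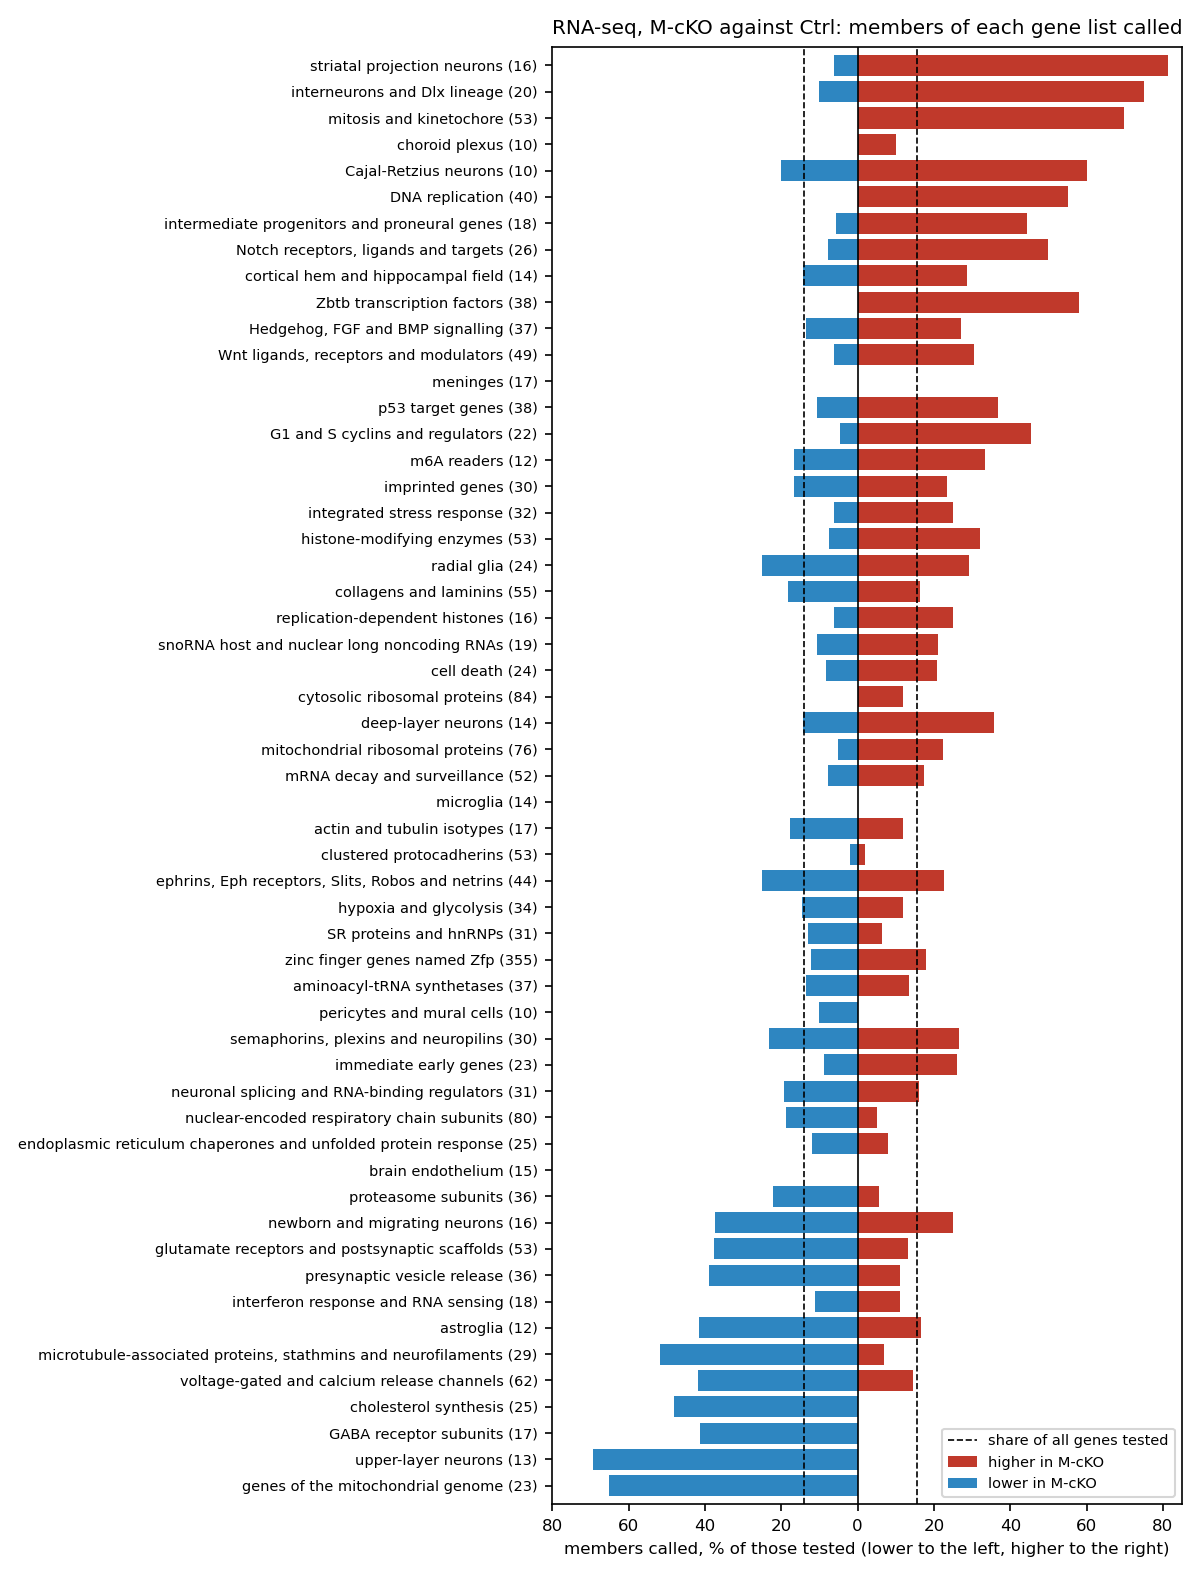
Share of the tested members of each gene list called higher (right, red) or lower (left, blue) in *M*-cKO against Ctrl by RNA-seq, for lists with at least 10 members tested (number in brackets). Dashed lines mark the share of all genes tested, and lists are ordered by their median log2 fold change.

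Genes were grouped into lists by function or cell type, and the share of each list called in each direction was plotted beside that of all genes. The highest medians in the plot were those of striatal neurons, the Dlx lineage, mitosis, choroid plexus (1 of 10 called), Cajal-Retzius neurons, DNA replication, IPs and Notch signaling, in that order. The lowest were those of the mitochondrial genome, upper-layer neurons, GABA receptor subunits, cholesterol synthesis and ion channels. Several lists, such as clustered protocadherins and microglia, had few or no members called. Counts are of members that passed the filter on level, and no *P* is given for a list. Lists and members were chosen with earlier results of these data known. Their shares therefore describe the lists and do not test them against all genes. Brackets after a count give its values where a change of tool, filter or libraries moved it by over 1.5-fold. Of 146 genes named here and placed on the assembly, 68 overlap another gene model, among them *Mettl3*, *Rbm15*, *Ccnd1*, *Nnat* and *Wdr6*. The labels do not say if reads were counted by strand, so reads in such overlaps could come from either gene.

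The tissue label was checked against markers of cortical projection neurons. *Neurod2*, a transcription factor of cortical glutamatergic neurons, was at 759, 828 and 762 CPM in Ctrl and 1108, 1130.4 and 1150.4 CPM in *M*-cKO. Its log2 fold change was 0.52 ± 0.06, FDR = 1.2e-04, and all 3 *M*-cKO libraries lay above Ctrl. *Tbr1*, *Eomes* and *Pax6*, which mark layers and progenitors of the cortex, also passed the filter on level. Hox genes, which pattern the hindbrain and spinal cord, gave no gene for testing, and 31 of 39 were at 0 in all libraries used.

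Several components of the m6A machinery were higher in *M*-cKO. *Rbm15*, which encodes an RNA-binding subunit of the writer complex, was at 21.4, 20.5 and 17.3 CPM in Ctrl and 55.8, 51.9 and 46.6 CPM in *M*-cKO. Each *M*-cKO library was above 2-fold any Ctrl library, and the log2 fold change was 1.37 ± 0.10, FDR = 1.7e-05. Its paralog *Rbm15b* was at 220.1, 219.8 and 199 CPM in Ctrl and 380.2, 367 and 373 CPM in *M*-cKO, again with no overlap between the groups (0.80 ± 0.06, FDR = 1.8e-05). *Virma* (0.41 ± 0.07), *Wtap* (0.35 ± 0.08) and *Mettl16* (0.38 ± 0.07), which encode scaffold subunits and a separate methyltransferase, rose by less. *Mettl14*, whose product pairs with Mettl3, was at 42.2, 41.6 and 38.8 CPM in Ctrl and 41.7, 41.3 and 39.9 CPM in *M*-cKO. Its groups overlapped, and it was not called (−0.01 ± 0.07, FDR = 0.966). Of 9 writer genes tested 7 were higher, *Mettl3* included, and by edgeR none was lower (0 at an unadjusted *P* below 0.05 and 0 with DESeq2). The erasers *Alkbh5* (0.39 ± 0.07, FDR = 0.0028) and *Fto* (0.36 ± 0.10, FDR = 0.0168) were higher too. With all 9 RNA-seq libraries in 1 fit *Fto* had a log2 fold change of 0.37 but was not called (FDR = 0.375). Among readers, 4 of 12 members tested were higher and 2 lower, with a median of 0.17.

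*Ythdf1* was at 77.5, 76 and 66.2 CPM in Ctrl and 129, 135 and 132 CPM in *M*-cKO, and *Ythdf2* at 100.4, 102 and 91 CPM in Ctrl and 161, 161 and 156 CPM in *M*-cKO. In both genes each *M*-cKO library lay above each Ctrl library, with log2 fold changes of 0.84 ± 0.07, FDR = 2.8e-05 and 0.69 ± 0.06, FDR = 4.0e-05. *Ythdf3*, the remaining member of that family, was at 109, 102 and 98.2 CPM in Ctrl and 113, 121 and 102 CPM in *M*-cKO, where the groups overlapped (0.11 ± 0.07, FDR = 0.297). *Igf2bp2*, which encodes an mRNA-stabilizing reader, was higher (0.61 ± 0.12, FDR = 0.00317). *Fmr1* (−0.30 ± 0.07, FDR = 0.00677) and *Hnrnpa2b1* (−0.21 ± 0.05, FDR = 0.0134) were the lower readers.

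Radial glia markers split into opposite directions. *Sox2*, a transcription factor of neural progenitors, was at 105, 108 and 88.8 CPM in Ctrl and 195, 191 and 180.2 CPM in *M*-cKO. *M*-cKO was higher in each library (0.90 ± 0.08, FDR = 3.2e-05). *Gli3*, which encodes a Hedgehog effector in dorsal progenitors, was at 43.1, 35.3 and 25.2 CPM in Ctrl and 94.9, 91.6 and 85.8 CPM in *M*-cKO, with each *M*-cKO library above 2-fold the mean of Ctrl (1.38 ± 0.14, FDR = 8.3e-05). *Sox9* (0.88 ± 0.09, FDR = 5.7e-05) and *Notch1* (0.84 ± 0.10, FDR = 1.2e-04) rose as well. In contrast, *Tnc*, which encodes the matrix protein tenascin C of radial glia, was at 230.4, 241 and 294 CPM in Ctrl and 73.5, 82 and 93.9 CPM in *M*-cKO. The groups stood far apart and the log2 fold change was −1.62 ± 0.11, FDR = 9.9e-06. *Fabp7*, which encodes a fatty acid binding protein of radial glia, was at 759.5, 654 and 828 CPM in Ctrl and 388, 385 and 382 CPM in *M*-cKO, lower in each *M*-cKO library (−0.97 ± 0.08, FDR = 2.6e-05). *Ptprz1* (−0.87 ± 0.08, FDR = 4.1e-05) and *Hopx* (−0.94 ± 0.11, FDR = 1.2e-04), both used as markers of outer radial glia, fell too.

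*Pax6*, the transcription factor that defines dorsal radial glia, was at 70.2, 66.5 and 49.1 CPM in Ctrl and 67.7, 68.1 and 70.9 CPM in *M*-cKO. Ctrl replicate 3 was low and the other libraries overlapped (0.14 ± 0.11, FDR = 0.364). *Hes1*, a Notch target, was at 13.6, 11.9 and 8.33 CPM in Ctrl and 16.5, 16.9 and 16.8 CPM in *M*-cKO, and *M*-cKO lay above Ctrl (0.56 ± 0.15, FDR = 0.0189, but FDR = 0.0562 without *M*-cKO replicate 2). In all, 7 of 24 radial glia markers tested were higher and 6 lower, with a median of 0.12. Their summed level went the other way, from 3793, 3635 and 3554 CPM in Ctrl to 3120.1, 3082 and 3415 CPM in *M*-cKO, without overlap. The sum leans on abundant members that fell, above all *Fabp7*, the most abundant by FPKM, and gives no direction for the list. In bulk RNA, fewer or more cells of a type and less or more RNA per cell cannot be told apart, here and for each marker list that follows.

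Among genes of IPs and of proneural factors, 8 of 18 members tested were higher and 1 lower, with a median of 0.34 (0 lower without Ctrl replicate 1 or 2 or *M*-cKO replicate 1 or 2 or with DESeq2). *Rnd2*, which acts in migrating neurons, was at 143, 142 and 116 CPM in Ctrl and 199, 203 and 228 CPM in *M*-cKO, with no overlap (0.65 ± 0.09, FDR = 3.9e-04). *Insm1*, a transcription factor that promotes IP production, was at 183, 199 and 145 CPM in Ctrl and 242, 239 and 236 CPM in *M*-cKO. Its *M*-cKO libraries lay above those of Ctrl (0.44 ± 0.10, FDR = 0.0058). *Btg2*, which marks neurogenic divisions, rose likewise (0.58 ± 0.12, FDR = 0.0041). The defining IP gene *Eomes* was at 184, 196 and 127 CPM in Ctrl and 192, 189 and 217 CPM in *M*-cKO. Ctrl replicate 3 was the lowest library, the groups overlapped, and the gene was not called (0.23 ± 0.13, FDR = 0.216). *Neurog2*, which encodes a proneural factor upstream of *Eomes*, was at 168, 182 and 101 CPM in Ctrl and 188, 194 and 210.0 CPM in *M*-cKO, with Ctrl replicate 3 again low (0.38 ± 0.16, FDR = 0.102). Without Ctrl replicate 2 it passed the test (0.54, FDR = 0.0232).

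Cell cycle genes moved mostly in 1 direction. Of 53 mitosis and kinetochore genes tested, 37 were higher, with a median of 0.47, and by edgeR none was lower (0 at an unadjusted *P* below 0.05 and 0 with DESeq2). Their summed level was 1921, 1892 and 1493 CPM in Ctrl and 2449, 2439.7 and 2442 CPM in *M*-cKO. Each *M*-cKO sum exceeded each Ctrl sum. *Mki67*, a marker of cycling cells, was at 132, 123 and 116 CPM in Ctrl and 243, 229 and 182 CPM in *M*-cKO. *Cdca5*, which encodes a cohesin regulator, was at 11.4, 10.4 and 7.25 CPM in Ctrl and 28, 24.3 and 27 CPM in *M*-cKO. Both were higher in each *M*-cKO library (0.81 ± 0.10, FDR = 1.6e-04 and 1.43 ± 0.15, FDR = 7.5e-05). *Top2a*, a topoisomerase of mitotic chromosomes, rose by less (0.46 ± 0.10, FDR = 0.00763).

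Of 40 DNA replication genes, 22 were higher, with a median of 0.35, and by edgeR none was lower (0 at an unadjusted *P* below 0.05 and 0 with DESeq2). *Tk1*, which encodes the thymidine kinase of S phase, was at 19.9, 20.6 and 14.1 CPM in Ctrl and 45.6, 47.9 and 46.3 CPM in *M*-cKO. Each *M*-cKO library was above 2-fold any Ctrl library (1.34 ± 0.12, FDR = 4.4e-05). The helicase subunits *Mcm2* (0.68 ± 0.10, FDR = 7.3e-04) and *Mcm5* (0.74 ± 0.10, FDR = 3.0e-04) were also higher. Among cyclins and their regulators, 10 of 22 were higher and 1 lower (2 lower without Ctrl replicate 3). *Ccnd1*, which encodes the D-type cyclin that drives G1, was at 26.9, 29.7 and 22.5 CPM in Ctrl and 61.5, 57.1 and 58 CPM in *M*-cKO. *M*-cKO lay above Ctrl in each library (1.15 ± 0.10, FDR = 2.9e-05). *Ccnd2* rose (0.52 ± 0.09, FDR = 0.0017), whereas *Ccnd3* was not called (0.03 ± 0.15, FDR = 0.906). *Cdk6*, the kinase partner of these cyclins, was at 55.8, 53.8 and 45.2 CPM in Ctrl and 38.1, 37.9 and 34 CPM in *M*-cKO, and it was the lower member (−0.50 ± 0.09, FDR = 0.00208). Of 16 replication-dependent histone genes that passed the filter, out of 67, 4 were higher and 1 lower (7 higher with no filter on level; 2 lower without *M*-cKO replicate 3). Many transcripts of that family lack a poly(A) tail.

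Among p53 target genes, 14 of 38 members tested were higher and 4 lower, with a median of 0.23 (2 lower without Ctrl replicate 1). *Cdkn1a*, which encodes the cell cycle inhibitor p21, was at 10.2, 9.51 and 8.71 CPM in Ctrl and 21.1, 20.4 and 17 CPM in *M*-cKO, and *M*-cKO was higher in each library (1.03 ± 0.12, FDR = 1.4e-04). *Phlda3*, a repressor of Akt, was at 7.77, 8.51 and 8.44 CPM in Ctrl and 16.7, 14.5 and 17.8 CPM in *M*-cKO, with the same separation (0.98 ± 0.12, FDR = 1.9e-04). Other defining targets did not follow. *Mdm2*, the ubiquitin ligase of p53, was at 77, 79.3 and 73.5 CPM in Ctrl and 81.2, 82.2 and 72.5 CPM in *M*-cKO, with overlapping groups (0.03 ± 0.07, FDR = 0.78), and *Ccng1* was not called (−0.11 ± 0.09, FDR = 0.4).

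Notch and Wnt components rose more often than they fell. Of 26 Notch receptors, ligands and targets, 13 were higher and 2 lower, with a median of 0.33 (1 lower without Ctrl replicate 1 or 3 or *M*-cKO replicate 1, 2 or 3 or with all 9 RNA-seq libraries in 1 fit or with no filter on level). *Notch3* was at 29.3, 32.9 and 25.3 CPM in Ctrl and 56.5, 53 and 56.6 CPM in *M*-cKO, and the target *Hey1* at 26.1, 22.1 and 19.1 CPM in Ctrl and 42.4, 48.6 and 51.6 CPM in *M*-cKO. Each *M*-cKO library lay above each Ctrl library in both genes (0.92 ± 0.09, FDR = 7.7e-05 and 1.07 ± 0.12, FDR = 1.0e-04). The ligand *Jag2* was lower (−0.39 ± 0.07, FDR = 0.00181). Among Wnt ligands, receptors and modulators, 15 of 49 members tested were higher and 3 lower, with a median of 0.26 (1 lower without *M*-cKO replicate 2). The receptor gene *Fzd9* was at 14.7, 13 and 11.3 CPM in Ctrl and 30.4, 28.3 and 36.9 CPM in *M*-cKO, and *Fzd2* at 47, 52.6 and 33.4 CPM in Ctrl and 95.4, 105 and 101 CPM in *M*-cKO. Neither showed overlap (1.28 ± 0.13, FDR = 6.5e-05 and 1.17 ± 0.13, FDR = 1.1e-04). *Axin2*, a feedback target of Wnt, rose by less (0.39 ± 0.09, FDR = 0.00965), while the secreted modulator *Dkk3* fell (−1.08 ± 0.15, FDR = 4.6e-04).

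For Hedgehog, FGF and BMP signaling, 10 of 37 members tested were higher and 5 lower, with a median of 0.26. The count was 17 higher with no filter on level. *Id4*, an inhibitor of basic helix-loop-helix factors, was at 108, 92.1 and 67.6 CPM in Ctrl and 205, 195 and 179.7 CPM in *M*-cKO, higher in *M*-cKO (1.10 ± 0.13, FDR = 1.7e-04). Its relative *Id2* was at 335, 335 and 393 CPM in Ctrl and 219, 215 and 229.6 CPM in *M*-cKO, lower in *M*-cKO (−0.69 ± 0.07, FDR = 8.7e-05). The Hedgehog receptor and target *Ptch1* was higher (0.54 ± 0.09, FDR = 0.0011), and the FGF target *Etv4* lower (−1.07 ± 0.14, FDR = 3.0e-04).

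Markers of neuronal layers moved in different directions. Most upper-layer genes were lower, with 9 of 13 called and a median of −0.37, and by edgeR none was higher (0 at an unadjusted *P* below 0.05 and 0 with DESeq2). Their summed level was 2473, 2418 and 2773 CPM in Ctrl and 1883, 2014 and 1835 CPM in *M*-cKO, without overlap. *Mef2c*, a transcription factor of maturing neurons, was at 371, 297 and 459.8 CPM in Ctrl and 179, 182 and 165 CPM in *M*-cKO, and *Inhba*, which encodes an activin subunit, at 16.7, 16.9 and 22.8 CPM in Ctrl and 5.27, 5.7 and 4.58 CPM in *M*-cKO. Both fell in each *M*-cKO library (−1.11 ± 0.12, FDR = 1.2e-04 and −1.87 ± 0.15, FDR = 2.6e-05). *Cux2* passed the test (−0.19 ± 0.06, FDR = 0.0393), but not without Ctrl replicate 2 (FDR = 0.0921), Ctrl replicate 3 (0.162), or *M*-cKO replicate 1 (0.115), 2 (0.077) or 3 (0.0946). *Cux1* was not called (−0.07 ± 0.06, FDR = 0.429).

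Deep-layer genes were called in both directions. *Bcl11b*, which specifies subcerebral projection neurons, was at 264, 245 and 221 CPM in Ctrl and 478, 461 and 405 CPM in *M*-cKO. There was no overlap, and the log2 fold change was 0.87 ± 0.08, FDR = 5.3e-05. Striatal neurons express it too, and the part of those cells was not tested. *Fezf2* was at 192, 197 and 165 CPM in Ctrl and 265, 259 and 271 CPM in *M*-cKO, and *Tbr1*, which specifies corticothalamic neurons, at 244, 234 and 224 CPM in Ctrl and 328, 326 and 310.3 CPM in *M*-cKO. Both were higher without overlap (0.52 ± 0.07, FDR = 4.5e-04 and 0.45 ± 0.06, FDR = 3.0e-04). *Crym*, a thyroid hormone binding protein of deep layers, was at 84.2, 84 and 94.6 CPM in Ctrl and 19.1, 19.9 and 32.5 CPM in *M*-cKO, far lower in *M*-cKO (−1.88 ± 0.16, FDR = 3.5e-05). *Ldb2*, a cofactor of LIM factors, fell as well (−0.93 ± 0.10, FDR = 1.2e-04). Of 14 deep-layer genes tested, 5 were higher and 2 lower, with a median of 0.06.

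Among 9 subplate genes tested, 3 were higher and 3 lower. *Lpar1*, a receptor for lysophosphatidic acid, was at 13.7, 16.8 and 9.25 CPM in Ctrl and 25.7, 31.6 and 30.0 CPM in *M*-cKO, while *Ccn2* was at 8.49, 6.94 and 7.09 CPM in Ctrl and 2.39, 3.6 and 3.86 CPM in *M*-cKO. The groups were separate in each gene, and the directions were opposite (1.12 ± 0.17, FDR = 7.8e-04 and −1.20 ± 0.20, FDR = 0.0012). *Nr4a2*, a defining nuclear receptor of the subplate, fell (−0.90 ± 0.11, FDR = 2.1e-04). Genes of newborn and migrating neurons gave 4 higher and 6 lower of 16, with a median of −0.11 (2 higher without Ctrl replicate 3 or *M*-cKO replicate 1 or 2). *Sox4* was at 479, 475 and 420.3 CPM in Ctrl and 749, 691 and 718 CPM in *M*-cKO, higher in each *M*-cKO library (0.64 ± 0.07, FDR = 8.3e-05). *Nrp1*, a semaphorin receptor, was at 159.8, 161 and 151 CPM in Ctrl and 105, 101 and 117 CPM in *M*-cKO, lower in each (−0.56 ± 0.07, FDR = 1.9e-04). *Stmn1*, which encodes a protein that destabilizes microtubules, fell by less (−0.37 ± 0.06, FDR = 9.6e-04). *Dcx* (0.01 ± 0.07, FDR = 0.929) and *Tubb3* (−0.11 ± 0.07, FDR = 0.255), which mark young neurons as a class, were not called.

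Of 10 genes of Cajal-Retzius neurons, the earliest neurons of the marginal zone, 6 were higher and 2 lower (1 lower without *M*-cKO replicate 2). *Reln*, which encodes the secreted protein reelin, was at 258, 248 and 226 CPM in Ctrl and 329, 287 and 305 CPM in *M*-cKO, and *M*-cKO was higher in each library (0.32 ± 0.07, FDR = 0.00589). *Trp73* rose as well (0.40 ± 0.10, FDR = 0.0103), and *Calb2* fell (−0.68 ± 0.12, FDR = 0.00184). Genes of the cortical hem and hippocampal field gave 4 higher and 2 lower of 14 (2 higher without *M*-cKO replicate 3; 1 lower without Ctrl replicate 1 or 3 or *M*-cKO replicate 1 or 2), with a median of 0.32. Their sum was lower, at 388, 364 and 369 CPM in Ctrl and 345, 357 and 364 CPM in *M*-cKO. *Dkk3*, the most abundant member by FPKM, fell from 64.2, 51.4 and 70.4 CPM in Ctrl to 22.6, 31.2 and 34.9 CPM in *M*-cKO. The sum leans on this gene and gives no direction for the list.

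**Figure D2:**
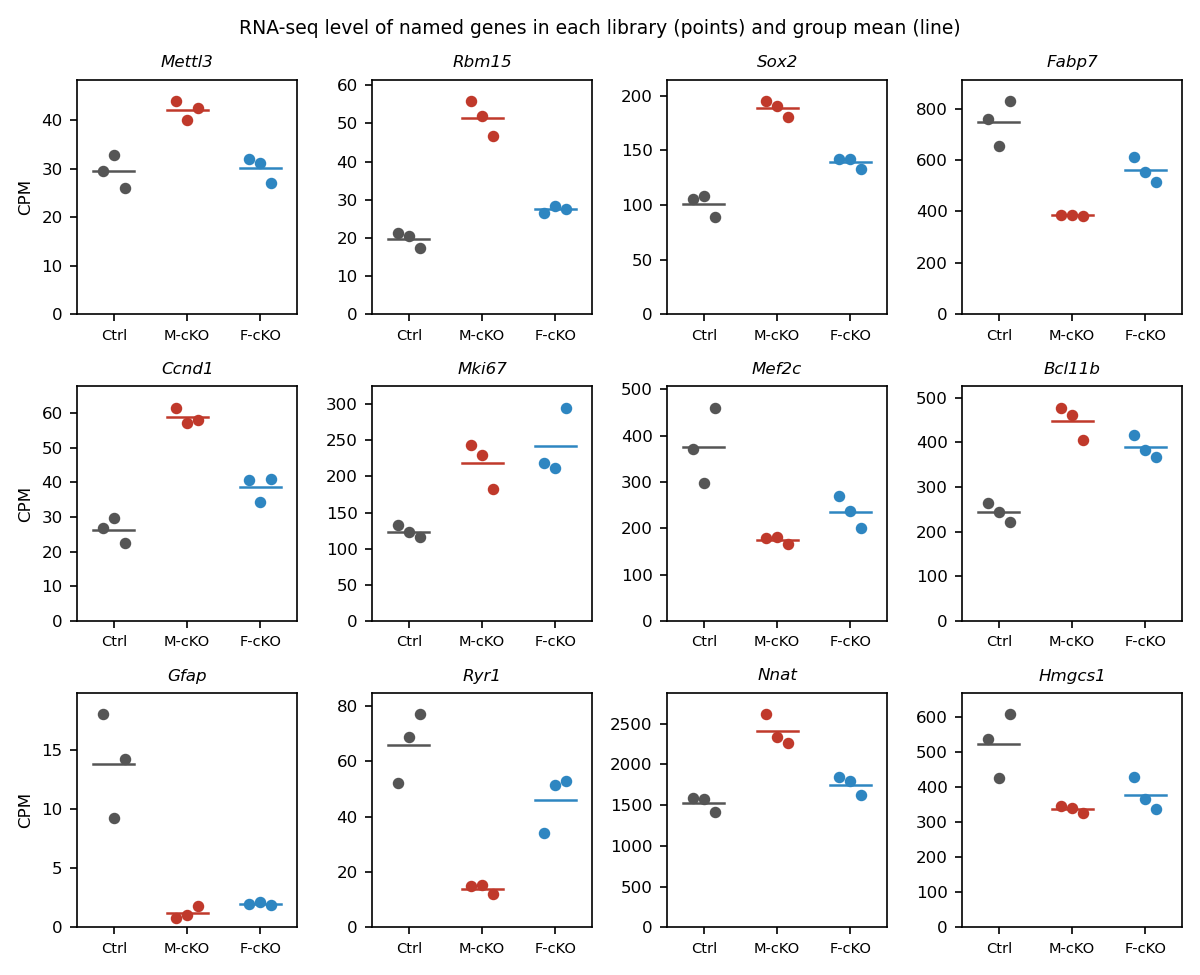
RNA-seq level (CPM) of 12 named genes in each Ctrl, *M*-cKO and *F*-cKO library (points) with the group mean (line). Within a group the points stand in order of replicate number, which carries no meaning.

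Markers of neurons that arise outside the *Emx1-Cre* domain gave the highest medians of the lists plotted. For interneurons and the Dlx lineage, 15 of 20 members tested were higher and 2 lower, with a median of 0.73. Their summed level was 902, 907 and 923 CPM in Ctrl and 1462, 1390.5 and 1168 CPM in *M*-cKO, against 1082, 928 and 811 CPM in *F*-cKO. *M*-cKO and Ctrl did not overlap. *Dlx1*, a transcription factor of the ventral telencephalon, was at 188, 196 and 197 CPM in Ctrl and 345, 316 and 264 CPM in *M*-cKO. *Dlx2* was at 36.4, 36.8 and 36.3 CPM in Ctrl and 89.9, 84.8 and 63.2 CPM in *M*-cKO, and *Sst*, which encodes somatostatin, at 47.1, 44.5 and 36.3 CPM in Ctrl and 93.2, 102 and 80.4 CPM in *M*-cKO. Each rose without overlap (0.66 ± 0.09, FDR = 2.6e-04, 1.11 ± 0.11, FDR = 6.8e-05 and 1.10 ± 0.11, FDR = 5.8e-05). *Npy*, which encodes neuropeptide Y and had the highest FPKM of the list in Ctrl (76.7), was at 36.5, 37.7 and 57.1 CPM in Ctrl and 16.3, 19.4 and 16.3 CPM in *M*-cKO. It fell in each *M*-cKO library (−1.34 ± 0.16, FDR = 1.6e-04).

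For striatal projection neurons, 13 of 16 members tested were higher and 1 lower, with a median of 1.80 (0 lower without Ctrl replicate 3 or *M*-cKO replicate 1). The sum over the list was 468, 442 and 459 CPM in Ctrl, 689, 744 and 551 CPM in *M*-cKO and 649, 566 and 525 CPM in *F*-cKO. The lowest *M*-cKO sum was above the highest Ctrl sum. *Isl1*, a transcription factor of the lateral ganglionic eminence, was at 3.39, 1.57 and 1.95 CPM in Ctrl and 21.4, 19.3 and 8.31 CPM in *M*-cKO. *Ebf1* was at 3.35, 3.66 and 3.3 CPM in Ctrl and 20.5, 23.6 and 10.7 CPM in *M*-cKO, and *Six3* at 2.95, 4.04 and 2.22 CPM in Ctrl and 22, 18.5 and 12.1 CPM in *M*-cKO. *M*-cKO replicate 3 was the lowest of its group in each of these genes and still above Ctrl (2.80 ± 0.36, FDR = 2.5e-04, 2.40 ± 0.26, FDR = 9.4e-05 and 2.50 ± 0.25, FDR = 6.1e-05). By limma *Ebf1* was at 1.43. *Drd2*, a dopamine receptor, rose (1.66 ± 0.25, FDR = 7.3e-04; 1.06 by limma), while *Drd1* was not called (−0.06 ± 0.19, FDR = 0.837). *Ppp1r1b*, a target of dopamine signaling, fell (−0.43 ± 0.11, FDR = 0.0131), but was not called without Ctrl replicate 3 (FDR = 0.0527) or *M*-cKO replicate 1 (FDR = 0.0514). The most abundant gene of this list by FPKM was *Meis2*, at 24 in Ctrl, and no member of these lists was at 0. How much of the other results moves with these cell types was not tested.

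Among other tissues near the cortex, markers of choroid plexus and meninges varied between libraries. Summed thalamic and diencephalic genes were higher in *M*-cKO without overlap. Summed choroid plexus genes were at 96.5, 1042 and 409 CPM in Ctrl and 570.1, 671 and 776 CPM in *M*-cKO, so that Ctrl spanned the whole range of *M*-cKO. *Ttr*, the most abundant of them by FPKM (389 in Ctrl), was at 80.9, 942 and 375 CPM in Ctrl and 506, 593 and 691 CPM in *M*-cKO. It was not called (0.35 ± 0.56, FDR = 0.684), but passed the test without Ctrl replicate 2 (1.39, FDR = 0.0303). Of 10 members edgeR called 1 higher (5 higher with no filter on level, 0 without Ctrl replicate 1 or 3 or *M*-cKO replicate 2 or 3 and 10 without Ctrl replicate 2) and 0 lower (0 at an unadjusted *P* below 0.05 and 0 with DESeq2). Meningeal genes summed to 135, 281 and 148 CPM in Ctrl and 77.2, 284 and 365 CPM in *M*-cKO, with *Cldn11* the most abundant by FPKM (5.93 in Ctrl). Of 17 members tested, edgeR called 0 higher (0 at an unadjusted *P* below 0.05 and 0 with DESeq2) and 0 lower (0 at an unadjusted *P* below 0.05 and 0 with DESeq2). These became 5 higher without *M*-cKO replicate 1 or with no filter on level and 1 without Ctrl replicate 2. Thalamic and diencephalic genes gave 3 higher (5 higher with no filter on level) of 5 tested out of 8, with summed levels of 39.5, 38.2 and 28.7 CPM in Ctrl and 55.6, 58 and 51.3 CPM in *M*-cKO, and none lower by edgeR (0 at an unadjusted *P* below 0.05 and 0 with DESeq2). In these tissues too no marker was at 0 in all libraries, and their part in the result was not tested.

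Of 12 astroglial genes 5 were lower and 2 higher, and without *M*-cKO replicate 2 the counts were 3 and 3. *Gfap*, which encodes the intermediate filament of astrocytes, was at 18, 9.22 and 14.2 CPM in Ctrl and 0.798, 1.05 and 1.77 CPM in *M*-cKO. The groups stood apart and the log2 fold change was −3.52 ± 0.31, FDR = 3.5e-05, or −2.23 by limma on log2 FPKM. *Slco1c1*, a thyroid hormone transporter, was at 38.7, 36.8 and 57.7 CPM in Ctrl and 10.6, 14.3 and 15.3 CPM in *M*-cKO, and lower in each *M*-cKO library (−1.73 ± 0.18, FDR = 8.0e-05). *Aqp4*, the water channel of astrocyte endfeet, fell from a low level (−1.25 ± 0.31, FDR = 0.0114; −0.47 by limma), with FDR = 0.0561 without Ctrl replicate 1 and 0.0534 without *M*-cKO replicate 2. Of 9 genes of the oligodendrocyte lineage, 1 was higher and 2 were lower (1 lower without Ctrl replicate 1 or 3 or *M*-cKO replicate 1 or 2 or with DESeq2 or with all 9 RNA-seq libraries in 1 fit).

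Markers of microglia and vessels were hardly called. Of 14 microglial genes tested, edgeR called 0 higher (0 at an unadjusted *P* below 0.05 and 0 with DESeq2) and 0 lower (1 at an unadjusted *P* below 0.05 and 0 with DESeq2; 1 lower without *M*-cKO replicate 3 or with no filter on level). Brain endothelium gave 0 higher (0 at an unadjusted *P* below 0.05 and 0 with DESeq2) and 0 lower (1 at an unadjusted *P* below 0.05 and 0 with DESeq2) of 15 with the same tool. This became 1 higher without *M*-cKO replicate 1 or with no filter on level; 1 lower with no filter on level and 2 without *M*-cKO replicate 3. Of 10 genes of pericytes and mural cells, 1 was lower (2 lower without Ctrl replicate 2 or *M*-cKO replicate 3 or with all 9 RNA-seq libraries in 1 fit) and 0 were higher by edgeR (0 at an unadjusted *P* below 0.05 and 0 with DESeq2). The lower gene was *Rgs5*, a regulator of G protein signaling (−0.41 ± 0.08, FDR = 0.00397). Erythroid genes summed to 383, 700.5 and 383 CPM in Ctrl and 390.2, 469 and 581 CPM in *M*-cKO, with 2 of 9 higher (1 higher without Ctrl replicate 3 or *M*-cKO replicate 3 or with all 9 RNA-seq libraries in 1 fit) and none lower by edgeR (0 at an unadjusted *P* below 0.05 and 0 with DESeq2). Of skeletal muscle genes 5 of 16 were tested, with 0 higher (0 at an unadjusted *P* below 0.05 and 0 with DESeq2) and 0 lower (2 at an unadjusted *P* below 0.05 and 0 with DESeq2; 1 lower without Ctrl replicate 1) by edgeR. For epidermis 8 of 12 were tested, 1 higher and 2 lower (3 higher without Ctrl replicate 2 or with no filter on level and 0 without Ctrl replicate 1 or 3 or *M*-cKO replicate 1 or 2; 1 lower without Ctrl replicate 3 or *M*-cKO replicate 1 or 2).

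The sex of the embryos is not labelled. *Xist*, the RNA that coats the inactive X chromosome of females, was at 562, 531 and 912 CPM in Ctrl and 0.0886, 143 and 374 CPM in *M*-cKO. *M*-cKO replicate 1 was close to 0, and all 3 *M*-cKO libraries lay below all those of Ctrl. *Ddx3y*, a gene of the Y chromosome, was at 19.1, 21.1 and 17 CPM in Ctrl and 37, 28.7 and 9.4 CPM in *M*-cKO, so each library held some. Neither was called (−1.96 ± 0.98, FDR = 0.157 and 0.38 ± 0.34, FDR = 0.444). *Xist* passed the test without *M*-cKO replicate 1 (FDR = 0.0102), and *Ddx3y* without *M*-cKO replicate 3 (FDR = 0.00249). Of 5 X-inactivation and Y-linked genes tested, edgeR called 0 higher (0 at an unadjusted *P* below 0.05 and 0 with DESeq2) and 0 lower (0 at an unadjusted *P* below 0.05 and 0 with DESeq2). These became 4 higher without *M*-cKO replicate 3 or with no filter on level; 1 lower without *M*-cKO replicate 1 or with no filter on level. The part of sex in the results was not tested.

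**Figure D3:**
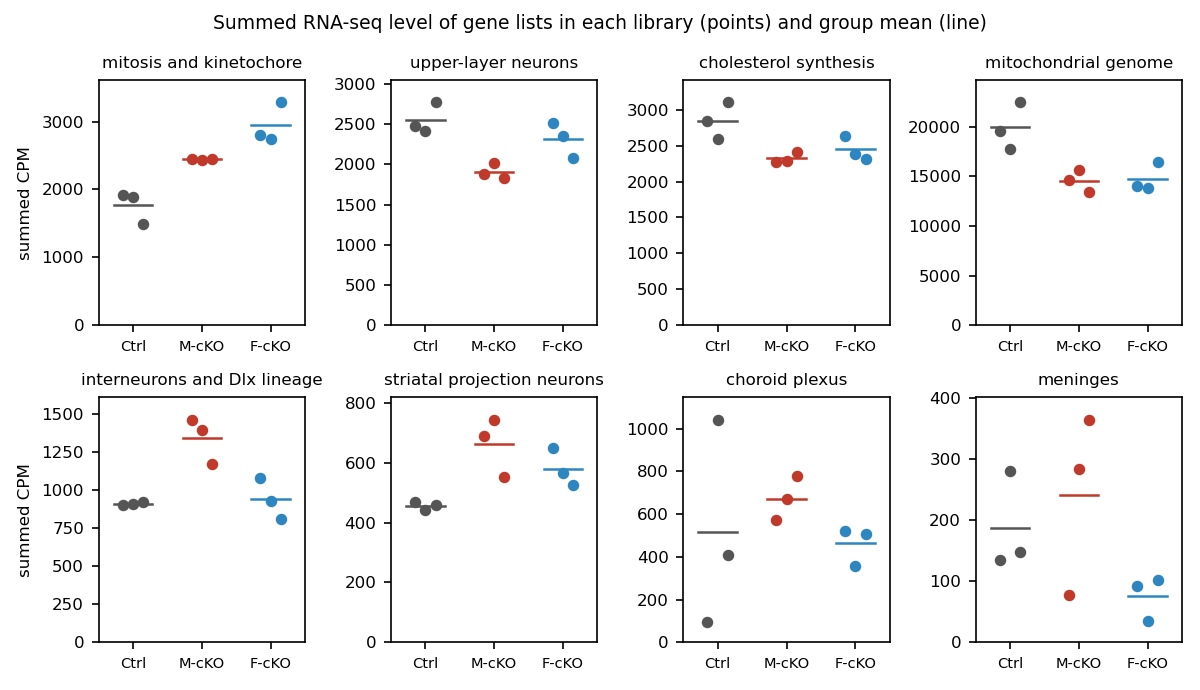
Summed RNA-seq level (CPM) of the members of 8 gene lists in each Ctrl, *M*-cKO and *F*-cKO library (points) with the group mean (line).

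Genes of neuronal function were lower more often than higher. Of 62 voltage-gated and calcium release channels, 26 were lower and 9 higher, with a median of −0.24 (5 higher without Ctrl replicate 2 or *M*-cKO replicate 1). *Ryr1*, which encodes a calcium release channel of the endoplasmic reticulum, was at 52.1, 68.7 and 76.9 CPM in Ctrl and 14.9, 15.2 and 11.9 CPM in *M*-cKO. *Itpr1*, the receptor for inositol trisphosphate in the same membrane, was at 115, 118 and 143 CPM in Ctrl and 42, 49.4 and 52.8 CPM in *M*-cKO, and *Ryr3* at 74.4, 81.3 and 77.4 CPM in Ctrl and 36.5, 42.2 and 40.5 CPM in *M*-cKO. These 3 release channels fell without overlap (−2.24 ± 0.14, FDR = 9.9e-06, −1.39 ± 0.10, FDR = 1.7e-05 and −0.97 ± 0.07, FDR = 1.8e-05). Of the plasma membrane channels, *Cacna1e* was lower (−0.74 ± 0.07, FDR = 5.6e-05), while *Kcnh1* was higher (1.35 ± 0.21, FDR = 9.4e-04; 0.60 by limma).

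Among glutamate receptors and postsynaptic scaffolds, 7 of 53 members tested were higher and 20 lower, with a median of −0.12 (4 higher without Ctrl replicate 2 and 3 without *M*-cKO replicate 1). *Gria2*, which encodes the AMPA receptor subunit that limits calcium entry, was at 453, 465 and 572 CPM in Ctrl and 263, 289 and 199 CPM in *M*-cKO. *Dlg2*, a scaffold of the postsynaptic density, was at 162, 136 and 192 CPM in Ctrl and 88.8, 81.4 and 75.6 CPM in *M*-cKO. The groups did not overlap in either gene (−0.996 ± 0.13, FDR = 2.4e-04 and −1.003 ± 0.11, FDR = 9.8e-05). Of 17 GABA receptor subunits, 7 were lower, with a median of −0.31 (2 lower without Ctrl replicate 1 or 3 and 3 without *M*-cKO replicate 2 or 3), and none was higher by edgeR (1 at an unadjusted *P* below 0.05 and 0 with DESeq2; 1 higher without Ctrl replicate 1 or *M*-cKO replicate 3 or with no filter on level). *Gabra2* was at 53.3, 51.3 and 78.8 CPM in Ctrl and 22.8, 20.7 and 21.2 CPM in *M*-cKO, lower throughout (−1.51 ± 0.14, FDR = 5.5e-05). Presynaptic release genes gave 14 lower and 4 higher of 36, with a median of −0.16 (2 higher without Ctrl replicate 1 or *M*-cKO replicate 2, 1 without Ctrl replicate 2 and 0 without *M*-cKO replicate 1). *Snap25*, part of the fusion machinery, was at 158, 144 and 186 CPM in Ctrl and 94.9, 95.5 and 87.2 CPM in *M*-cKO, and *Syt4*, a synaptotagmin, at 282, 238 and 338 CPM in Ctrl and 144, 143 and 124 CPM in *M*-cKO. Both were lower in each *M*-cKO library (−0.82 ± 0.09, FDR = 8.8e-05 and −1.07 ± 0.11, FDR = 7.5e-05).

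Microtubule-associated proteins, stathmins and neurofilaments followed the same direction, with 15 lower and 2 higher of 29 and a median of −0.22. The counts were 1 higher without Ctrl replicate 1, 2 or 3 or *M*-cKO replicate 1 or 2; 9 lower without Ctrl replicate 3 or *M*-cKO replicate 2 or with all 9 RNA-seq libraries in 1 fit. *Nefl*, the light neurofilament chain of axons, was at 64.8, 49.2 and 75.2 CPM in Ctrl and 27.2, 25.9 and 24.1 CPM in *M*-cKO. *Nefm* was at 115, 104 and 132 CPM in Ctrl and 61.5, 52.8 and 63.4 CPM in *M*-cKO, and both fell without overlap (−1.30 ± 0.13, FDR = 6.9e-05 and −0.99 ± 0.09, FDR = 5.4e-05). *Map1a* was a higher member, at 81.6, 65.2 and 71 CPM in Ctrl and 126, 109 and 129.7 CPM in *M*-cKO (0.74 ± 0.09, FDR = 2.0e-04). For actin and tubulin isotypes, 2 of 17 members tested were higher and 3 lower, with a median of 0.04 (1 higher without Ctrl replicate 2 or with all 9 RNA-seq libraries in 1 fit; 1 lower without *M*-cKO replicate 2).

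Guidance genes moved in both directions. Among ephrins, Eph receptors, Slits, Robos and netrins, 10 of 44 members tested were higher and 11 lower, with a median of 0.03 (6 higher without Ctrl replicate 3). *Slit1*, a repellent ligand, was at 69.6, 65.5 and 69.8 CPM in Ctrl and 119.6, 109 and 113 CPM in *M*-cKO, and its receptor *Robo2* at 189, 186 and 211 CPM in Ctrl and 125, 149 and 126 CPM in *M*-cKO. The ligand rose and the receptor fell, each without overlap (0.73 ± 0.06, FDR = 3.0e-05 and −0.55 ± 0.08, FDR = 5.6e-04). *Efnb1*, an ephrin of progenitors, was higher (0.89 ± 0.10, FDR = 1.3e-04). For semaphorins, plexins and neuropilins, 8 of 30 members tested were higher and 7 lower, with a median of −0.04 (4 lower without Ctrl replicate 3 or *M*-cKO replicate 1). *Sema3c* was at 102, 88.6 and 126 CPM in Ctrl and 46.1, 45.5 and 51.1 CPM in *M*-cKO, lower in each *M*-cKO library (−1.16 ± 0.11, FDR = 5.7e-05). Of 53 clustered protocadherins tested, 1 was higher and 1 lower (2 higher without Ctrl replicate 2 or *M*-cKO replicate 2 or with all 9 RNA-seq libraries in 1 fit and 3 with no filter on level; 0 lower without Ctrl replicate 1 or 3 or *M*-cKO replicate 2 or 3 and 3 without Ctrl replicate 2). Of 7 Fat, Dachsous and Celsr cadherins, 3 were higher (1 higher without Ctrl replicate 1 or 3), and none was lower by edgeR (0 at an unadjusted *P* below 0.05 and 0 with DESeq2). Collagens and laminins gave 9 higher (15 higher with no filter on level, 5 without Ctrl replicate 1 or 3 or *M*-cKO replicate 2 and 17 without *M*-cKO replicate 1) and 10 lower (5 lower without Ctrl replicate 3) of 55. *Col20a1* was at 0.849, 0.761 and 0.812 CPM in Ctrl and 5.32, 7.2 and 6.45 CPM in *M*-cKO, and *Col12a1* at 27.2, 35.7 and 28.9 CPM in Ctrl and 16, 13.6 and 18.2 CPM in *M*-cKO. Their directions were opposite (2.95 ± 0.22, FDR = 1.7e-05 and −0.95 ± 0.13, FDR = 3.9e-04), with 1.39 for *Col20a1* by limma.

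Most transcripts of the mitochondrial genome were lower. Of 23 genes tested 15 were lower, with a median of −0.53, and by edgeR none was higher (0 at an unadjusted *P* below 0.05 and 0 with DESeq2). The summed level was 19551, 17791 and 22458 CPM in Ctrl and 14596, 15620.3 and 13436 CPM in *M*-cKO, without overlap. *mt-Co1*, a subunit of cytochrome oxidase, was at 7681, 7076 and 8481 CPM in Ctrl and 5974, 6468 and 5834 CPM in *M*-cKO. *mt-Cytb* was at 4333, 4043 and 5211 CPM in Ctrl and 3130.5, 3098 and 2814 CPM in *M*-cKO. *M*-cKO was lower in each library for both (−0.35 ± 0.07, FDR = 0.00341 and −0.59 ± 0.09, FDR = 5.3e-04), though *mt-Co1* was not called by limma on log2 FPKM (FDR = 0.158). Among nuclear-encoded respiratory chain subunits, 4 of 80 members tested were higher and 15 lower, with a median of −0.07. The counts were 7 higher with no filter on level; 7 lower without Ctrl replicate 1 or *M*-cKO replicate 1, 8 without Ctrl replicate 2 or 3 or *M*-cKO replicate 2 and 24 without *M*-cKO replicate 3. *Cox7a2l*, a factor of supercomplex assembly, was at 149, 160.4 and 158 CPM in Ctrl and 255, 255 and 279 CPM in *M*-cKO, and rose (0.75 ± 0.06, FDR = 2.9e-05).

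Mitochondrial ribosomal proteins gave 17 higher and 4 lower of 76 (2 lower without Ctrl replicate 1, 0 without Ctrl replicate 3 and 1 without *M*-cKO replicate 1 or 2). *Mrps34* was at 24, 24.2 and 22.1 CPM in Ctrl and 47.1, 46.2 and 50.5 CPM in *M*-cKO, higher in each *M*-cKO library (1.02 ± 0.08, FDR = 1.9e-05). Of 84 cytosolic ribosomal proteins 10 were higher, with a median of 0.09, and none was lower by edgeR (2 at an unadjusted *P* below 0.05 and 0 with DESeq2). The counts were 18 higher with no filter on level, 3 without Ctrl replicate 1 and 6 without Ctrl replicate 3 or *M*-cKO replicate 3; 1 lower with no filter on level and 3 without *M*-cKO replicate 3. Proteasome subunits gave 2 higher and 8 lower of 36 (1 higher without Ctrl replicate 1 or 3 or *M*-cKO replicate 3; 5 lower without Ctrl replicate 3 or with no filter on level, 4 without Ctrl replicate 1 or *M*-cKO replicate 1 or 2 and 14 without *M*-cKO replicate 3). For aminoacyl-tRNA synthetases, 5 were higher (2 higher without Ctrl replicate 1 or *M*-cKO replicate 1 and 3 without Ctrl replicate 2 or 3 or *M*-cKO replicate 3) and 5 lower of 37.

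Cholesterol synthesis was lower at several steps. Of 25 genes 12 were lower, with a median of −0.27, and by edgeR none was higher (1 at an unadjusted *P* below 0.05 and 1 with DESeq2; 1 higher without *M*-cKO replicate 2 or with DESeq2 or with all 9 RNA-seq libraries in 1 fit or with no filter on level). Their sum was 2844, 2587 and 3103 CPM in Ctrl and 2275, 2291 and 2404 CPM in *M*-cKO. *Hmgcs1*, which acts early in the pathway, was at 539, 426 and 608 CPM in Ctrl and 345, 342 and 327 CPM in *M*-cKO, and *Sqle*, which makes squalene epoxide, at 191, 175 and 208 CPM in Ctrl and 149.9, 157 and 164 CPM in *M*-cKO. Each *M*-cKO library lay below each Ctrl library in both (−0.64 ± 0.10, FDR = 0.00109 and −0.29 ± 0.07, FDR = 0.0101).

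Stress programs, of which p53 targets are given above, showed no direction common to all lists. Among integrated stress response genes, 8 of 32 members tested were higher and 2 lower, with a median of 0.14 (1 lower without Ctrl replicate 1 or 3 or *M*-cKO replicate 1 or 2). Their summed level was higher without overlap, at 1426.6, 1397.8 and 1332.8 CPM in Ctrl and 1594.5, 1622.5 and 1780.3 CPM in *M*-cKO. *Atf4*, the central transcription factor of this response, was at 164, 161 and 160.2 CPM in Ctrl and 157, 171 and 174 CPM in *M*-cKO, with overlapping groups (0.04 ± 0.06, FDR = 0.673). *Ddit4*, an inhibitor of mTOR signaling, was at 180.0, 170.5 and 152 CPM in Ctrl and 227, 248 and 284 CPM in *M*-cKO, higher in each *M*-cKO library (0.59 ± 0.09, FDR = 7.5e-04). Endoplasmic reticulum chaperones and unfolded protein response genes gave 2 higher and 3 lower of 25 (1 higher without Ctrl replicate 1 or 2 or *M*-cKO replicate 1 or 3; 1 lower without Ctrl replicate 3 or *M*-cKO replicate 1 or 2). Cell death genes gave 5 and 2 of 24. *Bcl2l1*, which encodes the survival factor Bcl-xL, was at 106, 103 and 104 CPM in Ctrl and 155, 139 and 157 CPM in *M*-cKO, and it rose in each *M*-cKO library (0.52 ± 0.06, FDR = 1.9e-04). For interferon response and RNA sensing, 2 were higher and 2 lower of 18 (1 higher without Ctrl replicate 1 or 3 or *M*-cKO replicate 1, 2 or 3 or with DESeq2 and 4 with no filter on level; 1 lower without Ctrl replicate 1 or *M*-cKO replicate 1 or with DESeq2, 4 with no filter on level and 0 without Ctrl replicate 3 or *M*-cKO replicate 2). Hypoxia and glycolysis genes gave 4 higher and 5 lower of 34 (2 higher without Ctrl replicate 3; 8 lower with no filter on level, 3 without *M*-cKO replicate 1 or 2 and 9 without *M*-cKO replicate 3). *Vegfa*, the vascular growth factor, was lower (−0.48 ± 0.08, FDR = 0.00138).

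Immediate early genes, which respond to activity, gave 6 higher and 2 lower of 23 (5 lower with no filter on level and 4 without Ctrl replicate 2). *Nr4a3* was at 124, 122 and 122 CPM in Ctrl and 57, 49.5 and 65.9 CPM in *M*-cKO, and *Fosl2* at 79.7, 75.6 and 71.3 CPM in Ctrl and 36.1, 35.6 and 43.1 CPM in *M*-cKO. Each fell without overlap (−1.10 ± 0.09, FDR = 2.4e-05 and −0.99 ± 0.09, FDR = 3.5e-05). *Jun* was at 74.2, 72.2 and 72.7 CPM in Ctrl and 97.7, 93.5 and 118 CPM in *M*-cKO, higher in each *M*-cKO library (0.49 ± 0.08, FDR = 0.00154).

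Among regulators of transcription, Zbtb genes were higher more often than lower. Of 38 Zbtb transcription factors, 22 were higher, with a median of 0.30, and by edgeR none was lower (3 at an unadjusted *P* below 0.05 and 0 with DESeq2; 1 lower without Ctrl replicate 2 or *M*-cKO replicate 1 or with all 9 RNA-seq libraries in 1 fit or with no filter on level). *Zbtb22* was at 38.7, 35 and 35.8 CPM in Ctrl and 69, 67.2 and 72 CPM in *M*-cKO, higher in each *M*-cKO library (0.92 ± 0.07, FDR = 1.8e-05). Histone-modifying enzymes gave 17 higher and 4 lower of 53 (2 lower without Ctrl replicate 1 or 3 or *M*-cKO replicate 1 or 2). *Setdb1*, which methylates histone H3 at silenced loci, was at 117, 111 and 114 CPM in Ctrl and 179.9, 179.6 and 159 CPM in *M*-cKO. *Kmt2b*, which methylates it at promoters, was at 134, 147 and 128 CPM in Ctrl and 201, 202 and 195 CPM in *M*-cKO. Both were higher in each *M*-cKO library (0.59 ± 0.06, FDR = 9.9e-05 and 0.54 ± 0.06, FDR = 1.6e-04). Among zinc finger genes named Zfp, 64 of 355 members tested were higher and 43 lower, with a median of −0.01 (25 lower without Ctrl replicate 3). *Zfp423*, which acts in progenitors, was at 33.8, 38.7 and 32.2 CPM in Ctrl and 72.4, 73.3 and 72.3 CPM in *M*-cKO (1.05 ± 0.08, FDR = 1.7e-05).

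For SR proteins and hnRNPs, 2 of 31 members tested were higher and 4 lower, with a median of 0.00 (1 higher without Ctrl replicate 2 or 3 or *M*-cKO replicate 1). *Hnrnpa0* was at 1005, 1072 and 865 CPM in Ctrl and 1480.0, 1528 and 1452 CPM in *M*-cKO, without overlap (0.59 ± 0.08, FDR = 2.7e-04). Neuronal splicing and RNA-binding regulators gave 5 higher (2 higher without Ctrl replicate 3 and 3 without *M*-cKO replicate 2) and 6 lower of 31. *Khdrbs3*, a splicing factor of neurexins, was at 267, 256 and 322 CPM in Ctrl and 155, 158 and 164 CPM in *M*-cKO, and lower in each *M*-cKO library (−0.83 ± 0.08, FDR = 6.1e-05). *Rbfox1* fell (−0.46 ± 0.09, FDR = 0.0025), and *Nova2* rose (0.35 ± 0.07, FDR = 0.00248). Of mRNA decay and surveillance genes, 9 were higher (5 higher without Ctrl replicate 3) and 4 lower (2 lower without Ctrl replicate 3 or *M*-cKO replicate 1 or 2) of 52. Of snoRNA host and nuclear long noncoding RNAs, 4 were higher and 2 lower of 19 (0 higher without Ctrl replicate 1 or *M*-cKO replicate 1 or 2 and 2 without Ctrl replicate 3), with a median of 0.11. Their sum was lower, at 1965, 2050.2 and 2444 CPM in Ctrl and 1562, 1689 and 1567 CPM in *M*-cKO, against 1586, 1944 and 2759 CPM in *F*-cKO. That sum leans on abundant members and gives no direction for the list. Of 150 snoRNA genes 12 were tested, with 1 higher (0 higher without Ctrl replicate 2 or 3 or *M*-cKO replicate 1 or 2 or with DESeq2) and none lower by edgeR (2 at an unadjusted *P* below 0.05 and 0 with DESeq2; 1 lower without Ctrl replicate 3 or *M*-cKO replicate 1 or with no filter on level). Imprinted genes gave 7 higher and 5 lower of 30 (3 lower without Ctrl replicate 1 or 2 or *M*-cKO replicate 2). *Peg10* was at 32.2, 30.9 and 25.1 CPM in Ctrl and 79.4, 63.8 and 52.1 CPM in *M*-cKO, and *Magel2* at 8.4, 8.46 and 5.79 CPM in Ctrl and 23.7, 19.3 and 15.3 CPM in *M*-cKO, both higher in *M*-cKO (1.14 ± 0.14, FDR = 2.0e-04 and 1.35 ± 0.18, FDR = 3.4e-04).

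Among called genes, those with the largest fold changes included cell type markers. *Tgm7*, which encodes a transglutaminase, was at 0.0893, 0.19 and 0.108 CPM in Ctrl and 3.37, 2.9 and 2.41 CPM in *M*-cKO. *Lhx8* was at 1.3, 0.0475 and 0.379 CPM in Ctrl and 10.9, 5.7 and 3.81 CPM in *M*-cKO, and *Nkx2-1* at 2.32, 0.951 and 1.52 CPM in Ctrl and 14.8, 10.1 and 7.99 CPM in *M*-cKO. The latter genes encode transcription factors of the medial ganglionic eminence, and each rose without overlap (3.50 ± 0.60, FDR = 0.00139 and 2.76 ± 0.30, FDR = 1.1e-04), as *Tgm7* did (4.41 ± 0.36, FDR = 2.3e-05). *Tac1*, the precursor of substance P, was higher (2.81 ± 0.39, FDR = 4.2e-04). By limma on log2 FPKM the values were smaller, at 1.71 for *Tgm7*, 2.09 for *Lhx8* and 1.67 for *Tac1*. *Tgm7* in all Ctrl libraries and *Lhx8* in 2 of them had fewer than 10 reads. Both passed the filter on level through *M*-cKO, so the sizes of their changes are not fixed by these counts. On the lower side, *Nts*, which encodes neurotensin, was at 56.4, 13.7 and 77.5 CPM in Ctrl and 6.56, 7.95 and 3.31 CPM in *M*-cKO. Ctrl spread widely and stayed above *M*-cKO (−3.06 ± 0.52, FDR = 0.00132). *Dio2*, which activates thyroid hormone, was at 15, 11.4 and 16.9 CPM in Ctrl and 2.7, 2.55 and 3.68 CPM in *M*-cKO, and *Ccbe1* at 30.0, 29.9 and 38 CPM in Ctrl and 7.18, 6.05 and 7.13 CPM in *M*-cKO. *M*-cKO was lower in each library for both (−2.28 ± 0.19, FDR = 3.1e-05 and −2.27 ± 0.13, FDR = 7.0e-06).

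Of protein-coding genes called, over 1.5-fold and without overlap between groups, the 5 with the highest mean CPM in each direction were taken. Of these, *Nnat*, an imprinted gene of neurons, was at 1581, 1573 and 1417 CPM in Ctrl and 2613, 2332 and 2265 CPM in *M*-cKO. *Wdr6* was at 244, 242 and 227 CPM in Ctrl and 487, 438 and 466 CPM in *M*-cKO, higher in each *M*-cKO library (0.96 ± 0.06, FDR = 9.9e-06). *Nnat* rose by less (0.65 ± 0.07, FDR = 9.4e-05). *Ptn*, which encodes the secreted growth factor pleiotrophin, a ligand of the *Ptprz1* product, was at 565, 575 and 693 CPM in Ctrl and 281, 351 and 348 CPM in *M*-cKO. It fell in each *M*-cKO library (−0.91 ± 0.10, FDR = 1.1e-04).

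Ribosome-protected fragments of the same genotypes were counted in separate libraries, with 1020 (7.13%) of 14314 genes higher and 1073 (7.5%) lower in *M*-cKO. These numbers depend on the analysis, with 29 higher and 6 lower when all 9 Ribo-seq libraries were fitted together, and 1617 higher with DESeq2. The number higher was 230 without Ctrl replicate 1, 115 without Ctrl replicate 2, 269 without Ctrl replicate 3 and 500 without *M*-cKO replicate 1. The number lower was 160 without Ctrl replicate 1, 62 without Ctrl replicate 2, 192 without Ctrl replicate 3, 380 without *M*-cKO replicate 1 and 524 without *M*-cKO replicate 2. Of 2447 genes higher by RNA-seq and tested in both assays, 579 were higher and 17 lower in footprints, with a median of 0.32. Of 2021 lower genes, 506 were lower and 14 higher, with a median of −0.33. Over all 13208 genes tested in both the median was −0.02. The shared higher genes were 23.7% of those 2447 RNA-seq genes and 71.6% of the 809 genes higher by Ribo-seq and tested in both. The shared lower genes were 25% of 2021 and 47.9% of 1056. Among striatal markers 8 of 15 were higher and 1 lower in footprints, with a median of 1.81, and among the Dlx lineage 8 and 1 of 20 (1.04). Cholesterol synthesis had 7 lower of 25 (−0.33). Counts of some other lists can be set beside the shares of all genes, 7.13% higher and 7.5% lower. Intermediate progenitor and proneural genes had 1 higher and 1 lower of 18 (0.22), and DNA replication 4 and 1 of 40 (0.13). Glutamate receptors and scaffolds had 1 higher and 3 lower of 51 (0.14), and channels 1 and 7 of 56 (0.05). Of the mitochondrial genome only 8 genes could be tested, with 2 higher, and *mt-Co1* and *mt-Cytb* were not called (0.28 ± 0.54, FDR = 0.745 and 0.97 ± 0.58, FDR = 0.274). With all 9 Ribo-seq libraries in 1 fit these lists lost their calls. Without the *F*-cKO libraries in the fit, mitosis and kinetochore genes had 11 higher and 1 lower of 53 in footprints (0.19). Upper-layer genes had 6 lower and 0 higher of 13 (−0.40). Counts of mitosis and upper-layer genes with all 9 Ribo-seq libraries are not given here. Differences between the assays were not tested.

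*M*-cKO was also compared with *F*-cKO. *Fto*, the gene deleted there, was at 42.7, 99.1 and 32.2 CPM in the *F*-cKO libraries and 141, 147 and 110.4 CPM in Ctrl. The library labelled *F*-cKO replicate 2 lay close below the lowest Ctrl library, so its deletion is not shown by this level, and whole-gene counts also take reads of exons that remain. Of 16802 genes tested, 2196 (13.1%) had a higher level in *M*-cKO and 2403 (14.3%) a lower level. Without the library labelled *F*-cKO replicate 2 these numbers were 1442 and 1325, and the number lower was 1498 without *M*-cKO replicate 1 and 1500 without *M*-cKO replicate 2. This comparison shares the *M*-cKO libraries with the comparison above, so values are given side by side and no overlap was computed. *Rbm15* was at 26.6, 28.3 and 27.7 CPM in *F*-cKO, and *M*-cKO was higher than *F*-cKO by a log2 fold change of 0.90 ± 0.08, FDR = 1.1e-04. *Gfap* was also low in *F*-cKO, at 1.95, 2.11 and 1.88 CPM, and was not called between the knockouts (−0.72 ± 0.31, FDR = 0.111), though it was without *M*-cKO replicate 3 (FDR = 0.0346). *Nts*, at 3.13, 5.26 and 2.16 CPM in *F*-cKO, was not called either (0.75 ± 0.35, FDR = 0.142), nor was *Nefl* (0.02 ± 0.16, FDR = 0.931). *Crym*, at 40.4, 44.8 and 35.2 CPM in *F*-cKO, was lower in *M*-cKO (−0.75 ± 0.18, FDR = 0.0125). For most genes and lists above, *F*-cKO values are not given, so their changes from Ctrl may be shared by both knockouts. Mitosis and kinetochore genes, higher in *M*-cKO than in Ctrl, summed to 2802, 2748 and 3284 CPM in *F*-cKO. Each *F*-cKO sum lay above each *M*-cKO sum, and against *F*-cKO 26 of 53 were lower in *M*-cKO and 1 higher. Radial glia markers gave 3 higher and 13 lower of 24 against *F*-cKO. The mitochondrial genome summed to 14055, 13819.8 and 16444 CPM in *F*-cKO, which overlapped *M*-cKO. Upper-layer genes gave 9 lower of 13 against *F*-cKO. Of other cell types, 12 of 17 meningeal genes were higher than in *F*-cKO, with sums of 92.2, 35.7 and 102 CPM there, as were 14 of 20 genes of the Dlx lineage and 5 of 9 erythroid genes. Without the library labelled *F*-cKO replicate 2 these were 3, 7 and 2. The meningeal count was 4 without *M*-cKO replicate 2 and 3 without *M*-cKO replicate 3, and the erythroid count 3 without the latter and 1 with all 9 libraries in 1 fit. Mitosis, radial glia and upper-layer lists kept their directions without the library labelled *F*-cKO replicate 2. The part of other cell types in this comparison was not tested.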

How the data were processed

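Cortices of E15.5 mouse embryos were profiled in 3 libraries per genotype and assay. The authors aligned RNA-seq reads to mm10 with HISAT2 2.0.5 and deposited read counts per gene, with no normalization. The tool that counted RNA-seq reads, and whether it used strand, are not stated. FPKM values, which the authors scaled by gene length and library size, were used to rank members of lists and in limma. Transcript length was also derived from them, as the length that relates the counts of a gene to its FPKM. For Ribo-seq, counts deposited by the authors come from TopHat2 alignments and HTSeq, and 40490 genes left blank in most columns were not used.

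From the counts, genes with a count of at least 10 in enough libraries and 15 in total (filterByExpr) were kept in each comparison, scaled by TMM and tested by the quasi-likelihood F test of edgeR 4.0.16 in R 4.3.3. *P* values were adjusted by Benjamini-Hochberg over all genes tested, and a gene was called at an adjusted *P* below 0.05 with no limit on fold change. SE is |log2 fold change| divided by the square root of F. CPM values were scaled by TMM over the 9 RNA-seq libraries. The exact permutation test planned for sums of lists was run, and its *P* is not given, since members were chosen with results known. The scripts were tested on simulated data. Alternatives were DESeq2 1.42.0, limma 3.58.1 on log2(FPKM + 0.5), RLE scaling, no filter, all libraries of an assay in 1 fit, replicate number as a block, and leaving out each library. Gene classes and positions are from the RefSeq annotation of GRCm38.

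Named genes follow a rule. After *Mettl3*, these were the 10 largest changes in each direction among called protein-coding genes with a mean of at least 1 CPM and no overlap between groups, and the 5 most abundant in each direction over 1.5-fold. In each of 67 lists they were up to 4 called members per direction with the smallest adjusted *P* and the first 3 members, and in other gene classes the largest change. Not all of these are printed, and some genes are not reported here. Genes given as the most abundant of a list, or for overlap with another gene, were chosen after their values were seen. Members and lists were chosen with earlier results of these data known.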

Additional observations from a re-analysis of the deposited data

How the results depend on the processing

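The number of genes called in the RNA-seq comparison with Ctrl depended little on the tool. Against 2630 higher and 2394 lower, DESeq2 gave 2572 and 2188, RLE scaling 2638 and 2371, all 9 libraries in 1 fit 2662 and 2202, limma on log2 FPKM 2497 and 2088, and no filter 3123 and 2407. Leaving out each library gave 2048 to 2584 higher and 1498 to 2146 lower. Genes called and over 2-fold numbered 680, with 547 to 919 under other settings and 511 to 816 when a library was left out. Against *F*-cKO the ranges on leaving out a library were 1442 to 2342 higher and 1325 to 2224 lower, and no other setting moved these counts by over 1.5-fold.

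Ribo-seq counts depended most on the setting. DESeq2 gave 1617 higher, all 9 libraries in 1 fit gave 29 higher and 6 lower, and leaving out a library gave 115 to 1303 higher and 62 to 1244 lower. The cause was not tested.

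Replicate numbers do not pair the libraries. Same-numbered Ctrl and *M*-cKO libraries had correlations of deviations from the group means of 0.198, 0.0297 and −0.118, and Ctrl replicate 2 correlated best with *M*-cKO replicate 3 (0.245). With replicate number as a block the RNA-seq counts were 2405 higher and 2046 lower, and the Ribo-seq counts 681 and 638. Of the named genes only *Cux2* lost its call with it (FDR = 0.0674).

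Of the members of lists called, counted in each direction, 6 of 134 counts moved by over 1.5-fold with DESeq2, 10 with all 9 libraries in 1 fit, 26 with no filter, 10 with the block and 20 to 39 on leaving out a library. RLE scaling moved none. Named genes kept their calls with DESeq2 and RLE scaling. With no filter *Eomes* (FDR = 0.00301), *Neurog2* (FDR = 2.6e-07), *Ttr* (FDR = 1.9e-06), *Xist* (FDR = 2.8e-154) and *Ddx3y* (FDR = 0.00231) were called. *Cux2* was not called with all 9 libraries (FDR = 0.075), by limma (0.0679) or with no filter (0.0776). The cause was not tested. Genes with low levels had smaller log2 fold changes by limma on log2(FPKM + 0.5) and kept their calls.

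Direction turned only in genes that were not called. *Mettl14* was at 0.00247 with all 9 libraries, 0.00500 by limma and 0.0163 with no filter, and *Cldn11* at −0.11 by limma and −0.049 with the block. On leaving out each library in turn, the lowest and highest values were −0.16 to 0.15 for *Ccnd3*, −0.23 to 0.70 for *Cldn11*, −0.0400 to 0.0790 for *Dcx*, −0.0110 to 0.78 for *Ddx3y*, −0.20 to 0.12 for *Drd1*, −0.0356 to 0.0207 for *Mettl14* and −0.15 to 1.39 for *Ttr*. The cause was not tested.

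With 3 libraries per group, small changes and genes of low level can go uncalled. Counts per exon were not used, the labels give no strand, sex or litter (the methods appear to place Ribo-seq samples in 1 litter, and do not say for which group), and no group carries Cre alone by its label. Bulk RNA does not separate the number of cells from RNA per cell. Dissected tissue that varies between libraries adds to their spread, and a difference shared by a whole group cannot be told apart from genotype.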
